A study of Danio rerio
Oryzias latipes and Oryzias latipes and Danio rerio with 7 samples.

Results

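Chromatin regulator genes are taken here as the genes whose symbol starts with a family name of histone or DNA modifying enzymes, readers of their marks, or nucleosome remodellers. The families are CHD, SMARC, HDAC, KDM, KMT2, SETD, EZH, SUZ12, EED, DNMT, TET, CBX and BRD, with the numbers the rule allows for each, matched by symbol without regard to case. The rule found 124 of the 32264 zebrafish gene records (121 symbols) and 98 of the 20459 medaka records (94 symbols). The rule reads symbols only. The symbol rule also takes in enzymes whose known substrate is not a histone, such as setd3, an actin histidine methyltransferase, and hdac6, a tubulin deacetylase.

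RNA was measured in whole embryos of 3 kinds, all kept at 28 °C. Zebrafish embryos of the AB strain (2 libraries) grew in E3 medium, and medaka embryos of the Cab strain (2 libraries) grew in ERM. The chimeras (zebraka, 3 libraries, Cab/AB) were medaka blastulae that had received zebrafish blastomeres of the same age, and they also grew in ERM. The labels give the stage only as embryo, and are silent on whether a group's libraries stem from different clutches, so p-values measure the spread between these libraries only. On the zebrafish genome the chimera libraries hold the donor cells' RNA, and on the medaka genome that of the host. The values are FPKM, a fragment count corrected for transcript length and library depth, rescaled between libraries by the median ratio. Species of host, rearing medium, the transplantation and the mix of cell types all differ between the chimeras' donor cells and whole zebrafish embryos. These cannot be told apart.

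In an animal embryo, such proteins set which parts of the genome can be read. Most KMT2 and SETD1 proteins methylate H3K4 at promoters and enhancers, and KDM enzymes remove methyl groups from histones. Polycomb complex PRC2 places H3K27 methylation, which the Polycomb CBX proteins of PRC1 bind, while HP1 proteins (CBX1, CBX3 and CBX5) bind H3K9 methylation. SMARC proteins build the SWI/SNF (BAF) and ISWI remodellers, CHD proteins form a further remodeller family, DNMT and TET enzymes place and oxidise DNA methylation, HDACs remove acetyl groups, and BET proteins bind acetylated histones. Many of these genes have an a and a b copy in fish, kept from a genome duplication in teleost ancestors.

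Depth differed strongly between the sides of the donor comparison. On the zebrafish genome the number of fragments implied by the confidence limits was 21866700 and 28574200 in the zebrafish embryos and 764000 to 941708 in the chimeras, so a given FPKM rested on 41.0 times as many fragments in the embryos. On the medaka genome the totals were 18330400 and 21491600 in medaka embryos and 27167700 to 30984000 in chimeras. Reads of the other species that mapped to the wrong genome made up an estimated 14.8% to 16.0% of the chimeras' zebrafish-genome fragments, but 0.00813% to 0.00880% of their medaka-genome fragments. A gene was therefore tested only where the other species' own libraries averaged under 1 FPKM on that genome and either compared group averaged at least 1 FPKM. That left 111 of the 124 zebrafish records and 89 of the 98 medaka records. Of the 13 untested zebrafish records, 5 were cross-mapped, 7 were too low (KDM5A was listed at 0 in all libraries), and setdb1b had no valid Cufflinks status. Of the 9 untested medaka records, 6 were cross-mapped and 3 were too low.

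Most chromatin regulator genes were well expressed on both genomes. The tested zebrafish members had a median of 12.1 FPKM in zebrafish embryos, against 6.14 for all tested genes, and the tested medaka members 13.7 FPKM in medaka embryos, against 9.91. The order of levels at the top was shared between zebrafish embryos and donor cells. hdac1, a class I histone deacetylase, led with 277 ± 12.1 FPKM in zebrafish embryos (SD, n = 2) and 406 ± 18.6 in chimeras (SD, n = 3). It was followed in both groups by the HP1 gene cbx3a, the BAF subunit smarce1, the HP1 gene cbx5 and the H3K4 demethylase kdm1a. In the embryos cbx3a at 210.3 ± 27.3 FPKM and smarce1 at 182 ± 12.8 lay within about their joint spread, as did smarce1 and cbx5 at 170.3 ± 0.377, and of the 10 highest members 9 were the same in both groups. In medaka embryos a cbx1b record (259 ± 16.0) and cbx3a (254 ± 14.8) were highest and did not differ beyond their spread, cbx5 (169 ± 3.43) came next, and 9 of the top 10 records were shared with the host side of the chimeras.

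Chromatin regulator genes were more often higher in the donor cells of the chimeras than in whole zebrafish embryos. Of the 111 tested members, 39 rose and 10 fell by limma's test with Benjamini-Hochberg adjustment over all 16610 tested genes, against a background of 10.5% of tested genes higher and 32.6% lower. The median difference in log2(FPKM + 1) was 0.35 over the members and -0.24 over all tested genes. The values of the 3 chimeras lay above both embryos for 59 members, below both for 19 and overlapped for 33, where 22% of all tested genes lay above and 43.6% below. Of the 39 higher and 10 lower calls, 0 had groups that overlap, so a lack of overlap does not set called genes apart from each other. In a whole-embryo library, fewer cells of a type and less RNA per cell cannot be told apart. Under quantile normalization, which moves the median of all tested genes from -0.24 to 0.30, 66 members were called higher and 0 lower, so that the higher share of called members went from 79.6% to 100% and that of all called genes from 24.4% to 61.9%. The counts also depended on single libraries. Without zebrafish library 1 the members called higher numbered 18 and lower 3, without zebrafish library 2 they numbered 25 and 1, without chimera library 3 the higher calls were 25, and without chimera library 1 the lower calls were 6.

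Split by level, more of the high members rose and more of the low ones fell, a split made after the values had been seen. The level was averaged over embryos and chimeras together, so a rise lifts a gene's level and a fall lowers it. A link of level and direction is thus partly built in, and all tested genes show one too. Of the 43 members that averaged 20 FPKM or more, 26 rose and 0 fell, while of all 3095 genes at that level 25.6% rose and 20.1% fell. Of the 36 members from 5 to 20 FPKM, 10 rose and 2 fell, against 12.5% and 23.7% of all genes. Of the 32 under 5 FPKM, 3 rose and 8 fell, against 3.46% and 43.5%. With a minimum mean of 5 FPKM for all tested genes, 36 of 87 members rose and 2 fell, against a background of 15.9% and 29.9%. The counts per role below were not set against genes of their own level, so they are to be read beside these shares. The risen members rested on 15.1 to 3215 fragments summed over the chimeras (median 419), but 6 of the 10 fallen ones on fewer than 10. These fragment numbers run low for genes with several isoforms. The number expected per chimera from the embryos' level, given for some genes below, can run several-fold low too. For dnmt1 51.6 were expected, and 459 to 531 were implied in the chimeras at a 1.75-fold rise. Of the 39 higher calls 12 held under every alternative run, and of the 10 lower calls 0 did.

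**Figure D1:**
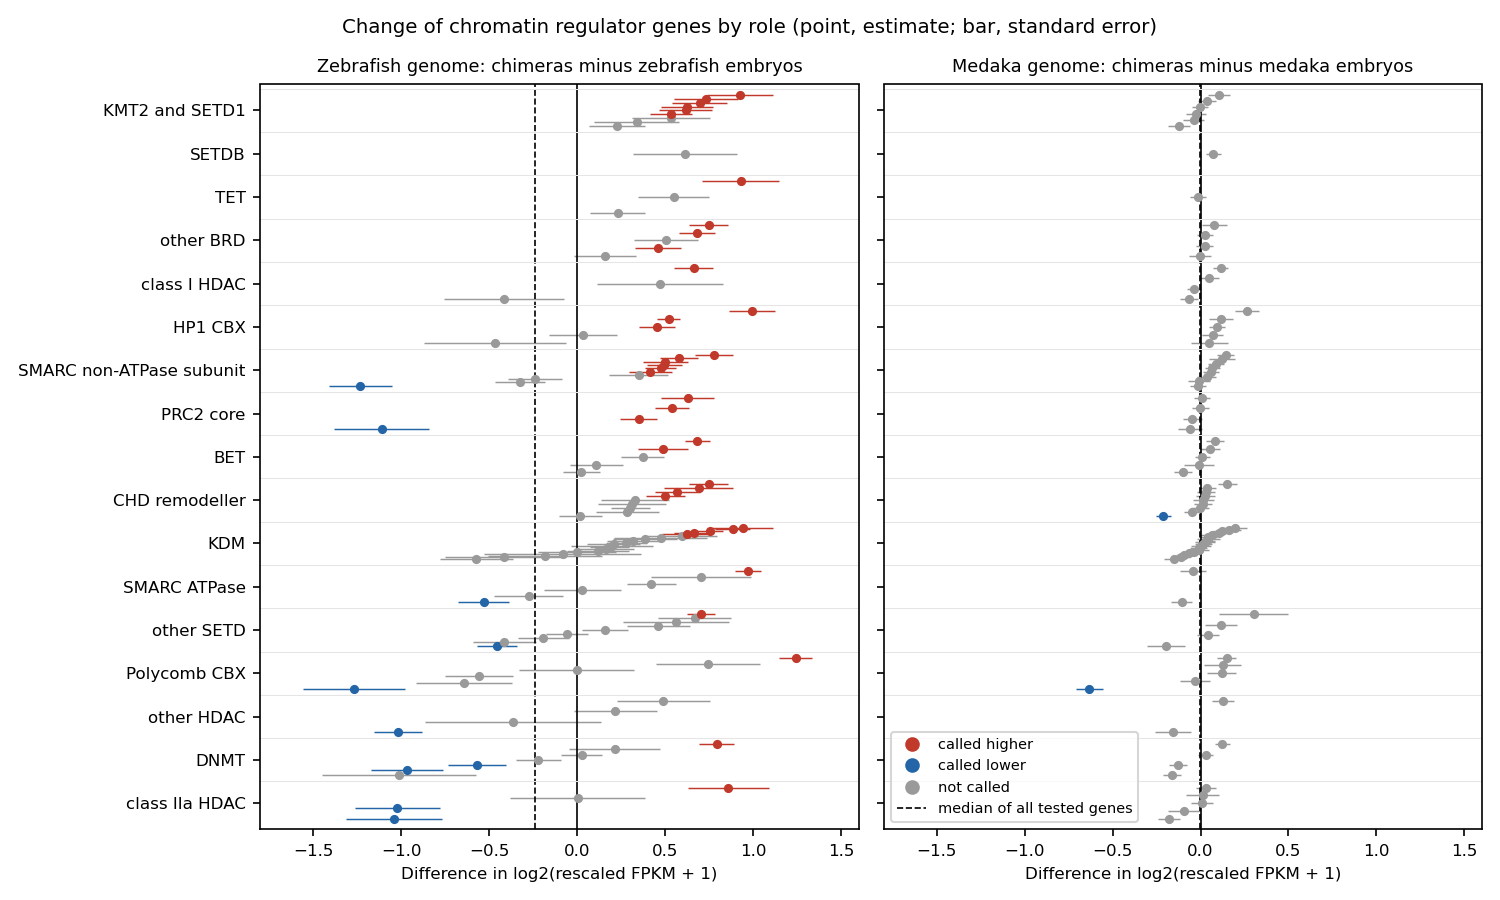
Difference in log2(rescaled FPKM + 1) of the tested chromatin regulator genes reported here, by role, for chimeras minus zebrafish embryos on the zebrafish genome (left) and chimeras minus medaka embryos on the medaka genome (right). Points are estimates, bars standard errors, and the dashed line is the median of all tested genes; donor values spread from -1.27 to 1.24 and host values from -0.63 to 0.30.

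Among the KMT2 and SETD1 genes, 6 of the 9 tested rose and none fell, where 10.5% of all tested genes rose and 32.6% fell. Those 6 were kmt2a, kmt2ba, kmt2bb, kmt2d, kmt2e and setd1a, with all 9 estimates above 0 and a median of 0.62. kmt2a, the fish counterpart of mammalian MLL (chromosome 15, 23444094 to 23484905 in danRer10), had 7.97 and 11.8 FPKM in the zebrafish embryos and 20.7, 18.4 and 19.2 in the chimeras. The groups did not overlap, and the difference of 0.93 ± 0.19 (SE, adjusted p = 0.0152) was a 1.96-fold rise of the mean. The zebrafish embryos differed from each other in this family, and library 2 was higher than library 1 for all 9 tested genes. Without zebrafish library 1 all but kmt2a lost the call, at adjusted p of 0.0503 (kmt2d) to 0.135 (kmt2ba), and each of these 5 was also lost without at least 1 chimera. kmt2a held without any 1 library but had an adjusted p of 0.0814 with libraries thinned to the lowest total. The 3 members not called were kmt2ca, kmt2cb and setd1ba, with differences of 0.34 ± 0.24, 0.53 ± 0.22 and 0.22 ± 0.16.

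Of 20 tested KDM genes 5 rose and none fell, with a median of 0.24. Over all tested genes 10.5% rose, and 25.6% of those at 20 FPKM or more, so the rise count alone does not mark this role. kdm1a (LSD1), which removes H3K4 methylation within the CoREST complex, had 136 and 149 FPKM in the embryos and 236, 242 and 244 in the chimeras. The chimeras lay close together and far above both embryos (difference 0.75 ± 0.07, adjusted p = 0.00109). kdm2ab, an H3K36 demethylase of the KDM2 type, had 12.7 and 13.6 FPKM in the embryos and 26.3, 25.0 and 24.0 in the chimeras, a difference of 0.88 ± 0.10 (adjusted p = 0.00185). Its duplicate kdm2aa also rose, by 1.62-fold. kdm4ab, an H3K9 and H3K36 demethylase, had 5.00 and 5.4 FPKM in the embryos and 10.3, 13.1 and 9.56 in the chimeras (difference 0.94 ± 0.17, adjusted p = 0.0108). All chimeras were above the embryos, but the adjusted p was 0.107 without zebrafish library 1 and 0.0859 without zebrafish library 2. The H3K9 demethylase kdm3b was the remaining KDM gene called, at 45.2 and 44.8 FPKM in the embryos and 60.9, 81.0 and 68.9 in the chimeras. The calls of kdm2aa and kdm3b were lost without either zebrafish library, and that of kdm3b also without chimera 3, at adjusted p of up to 0.0807 and 0.163. Of the tested H3K27 demethylases, none was called: kdm6a differed by 0.32 ± 0.15, kdm6ba by 0.00 ± 0.22 and kdm6bb by -0.57 ± 0.21. The further KDM6 record kdm6al was not tested because medaka reads map to it. It had 11.9 and 11.9 FPKM in the embryos and 50.2, 20.8 and 13.1 in the chimeras, on 3.32 implied fragments over all chimeras. The chimera mean was 27.4 ± 19.6 (SD) after the cross-mapped part was subtracted.

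The ISWI ATPase genes moved in opposite directions, but not under quantile normalization, where both were higher. smarca5 (chromosome 1, 52157701 to 52186216) had 91.4 and 95.7 FPKM in the embryos and 183, 192 and 179 in the chimeras. No overlap was seen, and the 1.97-fold rise (difference 0.97 ± 0.07, adjusted p = 0.000418) was among the largest of the members. The other ISWI ATPase gene, smarca1, had 2.27 and 2.05 FPKM in the embryos and 1.37, 1.14 and 1.07 in the chimeras, all below (difference -0.53 ± 0.14, adjusted p = 0.0382). The call was lost without zebrafish library 1 (0.139), zebrafish library 2 (0.0902), chimera 2 (0.0634) or chimera 3 (0.0759), and under quantile normalization the sign turned to 0.58. Of the 6 tested SMARC ATPases these were the called ones, where 10.5% of all tested genes rose and 32.6% fell. smarca4a (Brg1), the BAF ATPase, could not be tested because medaka reads map to it: its rescaled values were 92.1 and 101 FPKM in the embryos and 158, 181 and 157 in the chimeras, and the chimera mean was 154 ± 13.0 after the cross-mapped part was subtracted.

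Of the 10 non-ATPase SMARC subunits, 6 rose (smarcb1a, smarcb1b, smarcc1a, smarcc1b, smarcd1 and smarce1) and 1 fell (smarcd2), where 10.5% of all tested genes rose and 32.6% fell. Of the 6 calls, 4 were lost without zebrafish library 2, where adjusted p was highest: smarcb1a (0.242), smarcb1b (0.211), smarcd1 (0.104) and smarce1 (0.0737). The first 3 were also lost without zebrafish library 1, smarcb1a without chimera 1 or 2, and smarcb1b without chimera 2 or 3. These proteins form the core and the accessory parts of BAF complexes. smarcc1a, a scaffold subunit, had 58.4 and 68.1 FPKM in the embryos and 103, 118 and 106 in the chimeras (difference 0.78 ± 0.11, adjusted p = 0.00439). smarcd2, one of the alternative SMARCD subunits and known in mammals for its part in granulocyte development, had 4.33 and 4.29 FPKM in the embryos and 1.65, 1.15 and 1.03 in the chimeras. The embryos agreed closely and all chimeras were lower (difference -1.23 ± 0.18, adjusted p = 0.00481), on 5.25 implied fragments in the chimeras where 14.1 per chimera would match the embryos' level. Its adjusted p was 0.0630 without zebrafish library 1 and 0.0570 without library 2. smarcd1, the most abundant SMARCD gene, rose from 74.7 and 67.4 FPKM to 93.0, 102 and 106.

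CHD remodellers had 4 of 9 tested genes higher (chd1, chd4a, chd7 and chd8) and 0 lower, where 10.5% and 32.6% of all tested genes were. All 9 CHD estimates were above 0. chd1, which works at transcribed genes marked by H3K4 methylation, had 14.7 and 17.4 FPKM in the embryos and 27.1, 27.6 and 28.1 in the chimeras. The chimeras were tightly grouped above both embryos (difference 0.75 ± 0.11, adjusted p = 0.00508). chd7, mutated in human CHARGE syndrome, had 59.7 and 63.7 FPKM against 81.6, 125 and 98.0, with the widest spread among chimeras of the 4. chd4a and chd4b, the NuRD remodellers, differed by 0.50 ± 0.11 and 0.30 ± 0.11, and the first alone passed the test. Without zebrafish library 1 chd4a, chd7 and chd8 lost the call, chd7 also without zebrafish library 2 or chimera 3, chd8 without chimera 3 and chd4a without chimera 1, at adjusted p of up to 0.0605 for chd4a, 0.274 for chd7 and 0.1004 for chd8.

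**Figure D2:**
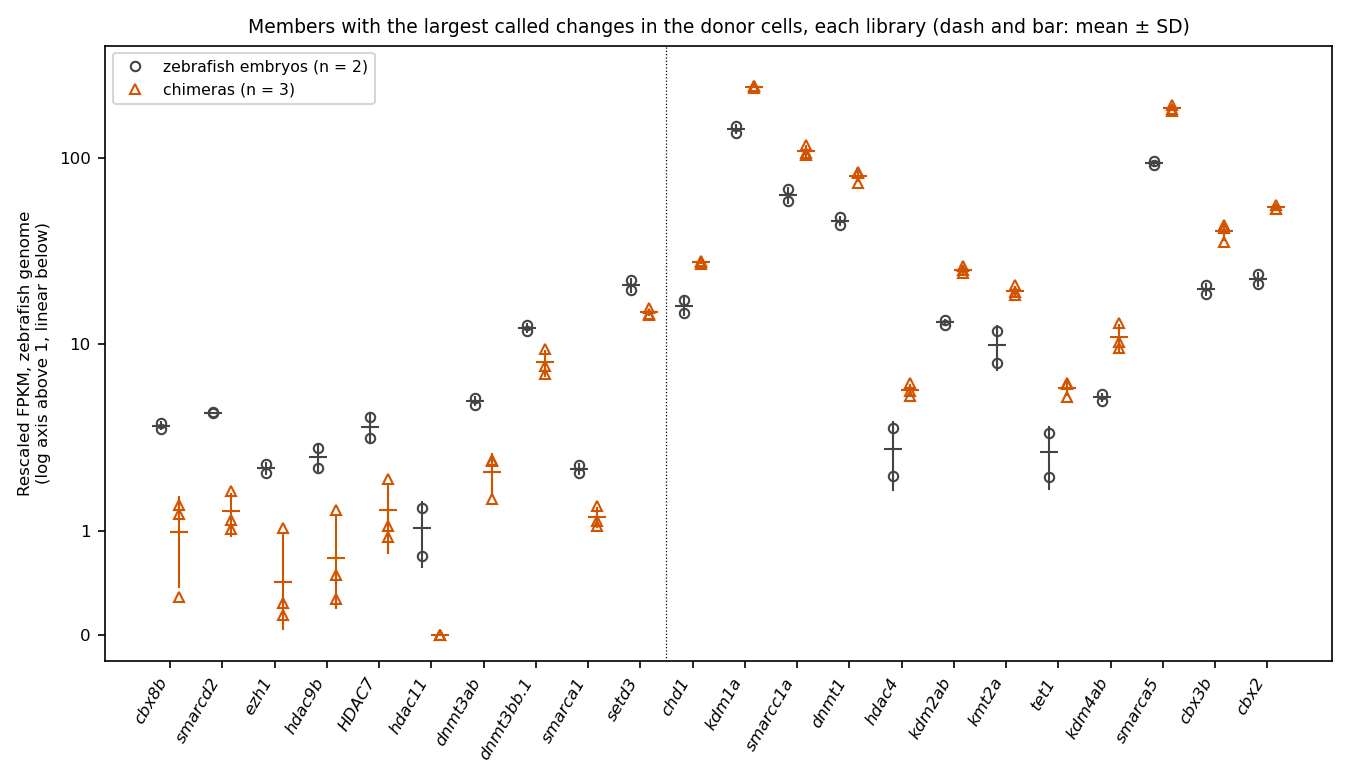
Rescaled FPKM on the zebrafish genome of the 10 called lower (left of the dotted line) and the 12 most increased chromatin regulator genes in each zebrafish embryo (circles, n = 2) and chimera (triangles, n = 3), on an axis that is logarithmic above 1 and linear below, with the mean and SD. By the rule that chose them, the groups are apart for all 22 genes. hdac11 is at 0 in the chimeras, and 8 of the 10 fallen genes have under 6 FPKM in the embryos.

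Of the PRC2 core the methyltransferase gene ezh2 and both suz12 copies rose, while ezh1 fell. Over all tested genes 10.5% rose and 32.6% fell. ezh2 had 33.4 and 29.2 FPKM in the zebrafish embryos and 46.4, 45.3 and 46.0 in the chimeras (difference 0.54 ± 0.09, adjusted p = 0.00921). The chimeras lay close together and above both embryos. suz12a, which holds the complex together, had 17.2 and 16.5 FPKM against 22.3, 20.2 and 22.9, and its copy suz12b had 31.4 and 30.1 against 57.4, 42.6 and 45.6. For neither did the groups overlap, at adjusted p of 0.0493 and 0.0271, and both calls fell away when either zebrafish library was left out (adjusted p of 0.128 and 0.164 for suz12a, 0.173 and 0.198 for suz12b), that of suz12a also without chimera 1 (0.0985) or chimera 3 (0.102), and that of suz12b without chimera 3 (0.0531). ezh1, the EZH enzyme known from non-dividing mammalian cells, had 2.06 and 2.30 FPKM in the embryos and 0.304, 0.191 and 1.04 in the chimeras (difference -1.11 ± 0.27, adjusted p = 0.0276). The chimera values rested on 2.11 implied fragments in all, where 8.44 per chimera would match the embryos' level. Chimera 3 had the highest value, which so few fragments cannot set apart from the others. The call was lost without zebrafish library 1 (0.252), zebrafish library 2 (0.276), chimera 1 (0.0753) or chimera 2 (0.0562), and quantile normalization turned the difference to 0.10. eed, the subunit that binds H3K27 methylation, was not tested, since medaka libraries gave 229 FPKM at it. Its mean was 46.6 ± 0.272 FPKM in the embryos and 89.2 ± 2.96 in the chimeras, or 55.2 ± 2.99 there after subtraction of the cross-mapped part.

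The Polycomb CBX genes, which give PRC1 its binding to H3K27 methylation, split. cbx2 (chromosome 3, 10182781 to 10195448) had 23.8 and 21.0 FPKM in the embryos and 53.4, 53.5 and 56.1 in the chimeras. The chimeras lay far above both embryos, and the difference of 1.24 ± 0.09 (adjusted p = 0.000437), a 2.42-fold rise, was the largest of all 111 members on the log2(FPKM + 1) scale. cbx8b had 3.81 and 3.53 FPKM in the embryos and 0.367, 1.38 and 1.24 in the chimeras (difference -1.27 ± 0.29, adjusted p = 0.0230), the largest decrease on the log2(FPKM + 1) scale, on 7.00 implied fragments. Without zebrafish library 1 its adjusted p was 0.193, and without library 2 it was 0.166. The 5 others did not pass the test, and cbx8a and cbx6a had differences of -0.56 ± 0.19 and -0.64 ± 0.27 with all chimeras below the embryos, while cbx6b had 0.75 ± 0.29 with all chimeras above. Of the 5 HP1 genes, cbx3a, cbx3b and cbx5 rose. Beside the counts of both CBX groups, 10.5% of all tested genes rose and 32.6% fell, and 25.6% of those at 20 FPKM or more rose. cbx3b had 20.9 and 18.6 FPKM in the embryos and 41.9, 35.5 and 43.9 in the chimeras, a 2.05-fold rise without overlap (difference 0.99 ± 0.13, adjusted p = 0.00344), and its adjusted p was 0.0603 without zebrafish library 2. cbx3a lost the call without zebrafish library 2, chimera 1 or chimera 3 (adjusted p of up to 0.0641). cbx1a was uneven among the chimeras, at 91.0 and 94.8 FPKM in the embryos and 50.6, 115 and 51.3 in the chimeras, so that chimera 2 stood above and the others below the embryos.

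Of the DNMT genes, the maintenance enzyme gene dnmt1 was called higher. dnmt1, which copies methylation to the new strand after replication, had 43.8 and 48.1 FPKM in the embryos and 73.7, 83.1 and 84.3 in the chimeras, all above (difference 0.79 ± 0.10, adjusted p = 0.00307). Of the 6 de novo genes 2 fell and none rose, where 10.5% of all tested genes rose and 32.6% fell. These counts are near those shares and do not mark the de novo genes. dnmt3ab had 4.75 and 5.2 FPKM in the embryos and 1.48, 2.39 and 2.38 in the chimeras (difference -0.97 ± 0.20, adjusted p = 0.0177). dnmt3bb.1 had 11.8 and 12.8 FPKM against 7.67, 6.93 and 9.48 (difference -0.57 ± 0.16, adjusted p = 0.0468). Both sets of chimeras lay wholly below the embryos, but leaving out either zebrafish library ended the calls (adjusted p of 0.121 and 0.136 for dnmt3ab, 0.183 and 0.229 for dnmt3bb.1), and that of dnmt3bb.1 also without chimera 1 (0.109) or chimera 2 (0.0829). dnmt3aa had unlike embryos, at 2.61 and 8.27 FPKM, and 2.17, 1.49 and 2.00 in the chimeras (difference -1.01 ± 0.44, adjusted p = 0.129). All its chimeras were lower, and without zebrafish library 1, the lower embryo, it was called at an adjusted p of 0.0299. dnmt3ba, the most abundant de novo gene, had 34.1 and 35.4 FPKM against 38.8, 31.5 and 36.3, dnmt3bb.2 had 12.4 and 14.2 against 11.7, 11.7 and 10.3, and dnmt3bb.3 had 11.9 and 8.78 against 14.5, 8.87 and 13.5. None of these passed the test (differences 0.03 ± 0.12, -0.22 ± 0.13 and 0.22 ± 0.26), and dnmt3bb.2 alone kept its groups apart. dnmt3bb.2 and dnmt3bb.3 overlap on chromosome 23, so reads of the shared stretch may be split between them.

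Of the TET genes, whose enzymes oxidise methylated cytosine, tet1 rose, where 10.5% of all tested genes did. It had 1.95 and 3.36 FPKM in the embryos and 6.22, 5.23 and 6.11 in the chimeras, without overlap (difference 0.93 ± 0.22, adjusted p = 0.0251). The embryos were unlike, and the adjusted p was 0.0856 without the lower one, zebrafish library 1, 0.0608 without chimera 1 and 0.06 without chimera 3. tet2 had 10.7 and 13.4 FPKM in the embryos and 15.2, 12.6 and 15.2 in the chimeras, which overlapped (difference 0.23 ± 0.16). tet3, the most abundant, had 17.8 and 27.3 FPKM against 33.0, 35.4 and 30.1 (difference 0.55 ± 0.20, adjusted p = 0.0909), with all chimeras above, and of the alternatives run it passed the test only without zebrafish library 2 (adjusted p = 0.0379).

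Histone deacetylase genes were called in both directions. Of those tested, 1 of 3 in class I rose, 1 of 4 in class IIa rose and 2 fell, and 1 of 4 others fell. Over all tested genes 10.5% rose and 32.6% fell, so these counts alone do not mark the HDAC genes. Of class I, hdac3, the catalytic subunit of the NCoR complex, had 30.4 and 28.0 FPKM in the embryos and 51.4, 45.4 and 43.7 in the chimeras, all above (difference 0.66 ± 0.11, adjusted p = 0.00761, or 0.0580 and 0.0764 without zebrafish library 1 and 2). hdac1, of the NuRD, Sin3 and CoREST complexes, had 286 and 269 FPKM in the embryos and 423, 408 and 386 in the chimeras. Its groups were also apart, but it was left untested because the medaka libraries averaged 1.93 FPKM at it, although subtracting the cross-mapped part left the chimera mean at 406 ± 18.6. hdac8, which deacetylates cohesin, is split over neighbouring records on chromosome 7. The record at 51381029 to 51434945 had 7.00 and 6.70 FPKM in the embryos and 5.95, 14 and 11.3 in the chimeras, and that at 51437472 to 51474613 had 4.00 and 3.33 against 1.6, 4.23 and 2.13. Both overlapped between groups and neither was called in the fit to all libraries (differences 0.47 ± 0.36 and -0.42 ± 0.34), while leaving out chimera 1 gave an adjusted p of 0.0253 for the first and leaving out chimera 2 one of 0.0453 for the second.

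Class IIa deacetylases, signal-responsive repressors known for binding MEF2 factors, were low in both groups. hdac4 had 1.98 and 3.56 FPKM in the embryos and 5.62, 5.27 and 6.19 in the chimeras, all above (difference 0.86 ± 0.23, adjusted p = 0.0363). It was called neither without zebrafish library 1, the lower embryo (adjusted p = 0.0960), nor without any chimera (0.0746, 0.0570 and 0.0808). HDAC7 had 3.14 and 4.11 FPKM in the embryos and 0.945, 1.90 and 1.06 in the chimeras, all below (difference -1.02 ± 0.24, adjusted p = 0.0257). The call of HDAC7 was lost without zebrafish library 1 (0.126), zebrafish library 2 (0.186), chimera 1 (0.0594) or chimera 3 (0.0638). hdac9b had 2.19 and 2.80 FPKM against 1.29, 0.342 and 0.580, and hdac11, the class IV enzyme, had 0.760 and 1.33 FPKM in the embryos and 0 in each of the 3 chimeras. Both were called lower (adjusted p = 0.0349 and 0.00343), hdac9b not without zebrafish library 1 (0.173), zebrafish library 2 (0.235), chimera 2 (0.0592) or chimera 3 (0.0858). At the embryos' level, however, the estimate was 2.32 fragments of hdac9b per chimera and 0.701 of hdac11, under the floor of 3. By this estimate, which can run low, their decrease cannot be told from missing coverage at this depth. hdac5, hdac10, hdac6 and hdac12 did not pass the test.

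Of the bromodomain genes, 2 of 5 BET genes (brd2b and brd3a) and 3 of 5 others (brd1a, brd1b and brd7) rose, and none fell, where 10.5% of all tested genes rose and 32.6% fell. The calls of brd1a and brd2b were lost whichever zebrafish or chimera library was left out, at adjusted p of 0.0540 to 0.158 and 0.0543 to 0.112. brd3a, the most abundant BET gene, had 95.4 and 88.8 FPKM in the embryos and 147, 149 and 149.9 in the chimeras, an even rise (difference 0.68 ± 0.07, adjusted p = 0.00142). brd7, a subunit of the PBAF form of SWI/SNF, had 52.1 and 44.5 FPKM against 81.5, 76.1 and 76.2. Among the other SETD genes setd8b, whose enzyme methylates H4K20, had 40.6 and 38.1 FPKM in the embryos and 66.7, 64.2 and 63.4 in the chimeras (difference 0.70 ± 0.08, adjusted p = 0.00191). Its copy setd8a had 44.7 and 38.0 against 39.0, 42.9 and 36.9, overlapping the embryos, and was not called. setd3 had 22.2 and 19.5 FPKM in the embryos and 15.7, 14.6 and 14.4 in the chimeras, all below (difference -0.45 ± 0.11, adjusted p = 0.0278), and it was called neither without zebrafish library 1 (0.0929) nor without any chimera (0.0518 to 0.0753). setdb1a, an H3K9 methyltransferase gene, was not called, with 13.2 and 13.7 FPKM in the embryos and 21.4, 29.3 and 14.7 in the chimeras.

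Among 22 a and b pairs with both copies tested, both copies rose in 7, 1 copy rose in 5, 1 copy fell in 2, neither was called in 8, and in 0 did the copies pass the test in opposite directions. Over all tested genes 10.5% rose and 32.6% fell. Pairs of other genes were not counted, so whether these pair counts are particular to chromatin regulator genes is not known. The pairs that rose together were brd1, cbx3, kdm2a, kmt2b, smarcb1, smarcc1 and suz12. In 7 of the 22 pairs (cbx1, cbx6, kdm5b, kdm6b, setd8, smarcad1 and smarcd3) the estimates had opposite signs, widest apart for cbx6a and cbx6b at -0.64 ± 0.27 and 0.75 ± 0.29, and of these 7 pairs setd8b was the called copy. The sign of kdm6ba is open, at 0.00 ± 0.22.

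The make-up of several families differed between the groups. These shares are of the family's summed FPKM, a description chosen after the values had been seen and given with no test. cbx2 held 40.8 and 35.9% of the Polycomb CBX total in the zebrafish embryos and 63.9, 61.8 and 60.6% in the chimeras. Within class IIa HDACs hdac4 went from 23.1 and 28.0% to 57.0, 51.3 and 72.0%, while HDAC7 went from 36.7 and 32.3% to 9.59, 18.5 and 12.4%. HDAC7 was thus the leading class IIa gene in both embryos and hdac4 in all 3 chimeras, each at low levels. setd8b went from 47.6 and 50.1% of the SETD8 pair to 63.1, 59.9 and 63.2%, and tet1 from 6.40 and 7.62% of the TET total to 11.4, 9.83 and 11.9%. ezh1 made up 5.79 and 7.28% of EZH FPKM in the embryos and 0.650, 0.419 and 2.22% in the chimeras, so ezh2 was nearly the whole of it in both groups. The chimera shares of ezh1 rest on 2.11 implied fragments in all. In DNMT3, dnmt3ba held 44.0 and 41.9% against 50.8, 50.1 and 49.1%.

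**Figure D3:**
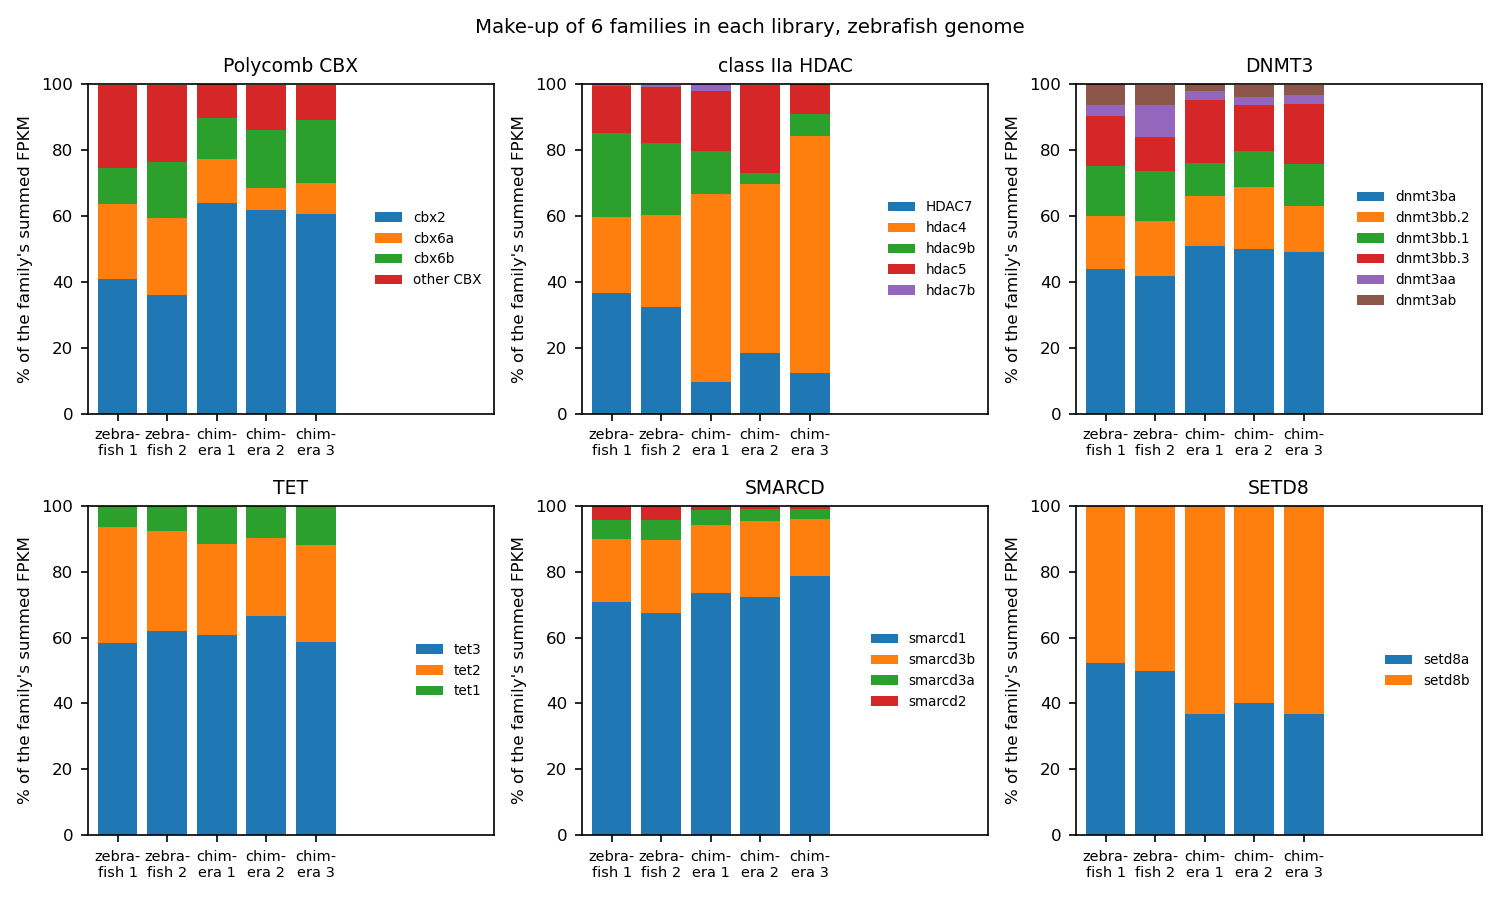
Share of each gene in the summed FPKM of 6 families, in % (y axis), in each zebrafish embryo and each chimera on the zebrafish genome, with the smaller Polycomb CBX genes drawn as 1 block. cbx2, hdac4 and setd8b take larger shares in all 3 chimeras than in both embryos; the class IIa HDAC totals are small and their shares vary between chimeras, from 51.3% to 72.0% for hdac4.

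Other chromatin genes, outside the symbol rule, also rose more often than they fell in the donor comparison. Of 142 tested genes in 8 lists, 54 rose and 10 fell, with a median of 0.40. Over all tested genes 10.5% rose and 32.6% fell, and 25.6% and 20.1% of those at 20 FPKM or more. The lists were not set against genes of their own level. Fragment numbers and left-out libraries are not given for these genes, so falls to near 0 FPKM are subject to the depth limit of the donor side. In DNA methylation partners 7 of 12 rose and 3 fell; mbd6, a methyl-CpG-binding domain gene, went from 5.63 ± 1.91 to 11.6 ± 2.34 FPKM (mean ± SD) and gadd45aa, a stress gene linked to DNA demethylation, from 3.12 ± 0.0101 to 0.191 ± 0.331. Histone chaperones and other remodelling factors had 14 of 25 higher and 3 lower, and the largest called changes were those of baz2ba (37.2 ± 1.88 to 117 ± 7.96; difference 1.63 ± 0.09, adjusted p = 0.000178) and nap1l4a (34.6 ± 1.47 to 14.3 ± 0.771), a nucleosome assembly gene. BAF subunits outside SMARC had 7 of 14 higher and 1 lower, with ss18l2 at 12.2 ± 1.76 to 27.5 ± 4.29 and bcl7ba at 6.02 ± 0.679 to 2.49 ± 0.282. The subunits in this list join the SMARC members in BAF complexes. In the PRC1 and PRC2 partners 4 of 20 rose and 1 fell, with scml2 at 33.5 ± 0.238 to 75.3 ± 9.56 and bmi1a, a PRC1 core gene, at 14.8 ± 0.0499 to 6.48 ± 1.1. Among NuRD, Sin3 and CoREST partners the counts were 4 and 1 of 20, with gatad2b at 7.28 ± 1.65 to 14.9 ± 1.80 and mbd2 at 4.42 ± 0.153 to 1.98 ± 0.768. The call of mbd2 was close to the threshold (adjusted p = 0.0496). INO80, SRCAP and TIP60 subunits gave 5 and 1 of 19, with actr6 at 14.9 ± 0.536 to 31.4 ± 0.821 and ino80e at 9.77 ± 0.141 to 0.0528 ± 0.0914. The histone acetyltransferases had 5 of 11 higher and the other histone methyltransferases 8 of 21, with none lower in either; kat7b went from 26.1 ± 0.973 to 49.1 ± 11.9 and suv39h1b from 34.0 ± 1.27 to 63.1 ± 6.35.

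Markers of cell state and cell type moved in the same comparison, where 10.5% of all tested genes rose and 32.6% fell. Of 29 tested cell cycle and DNA replication records 26 rose and 0 fell, with a summed FPKM of 2298 to 2429 in the zebrafish embryos and 4476 to 4973 in the chimeras. Of 17 retina genes 16 rose, from a sum of 209 to 233 to one of 1388 to 1434. Neural progenitor genes gave 2 higher and 1 lower of 10, and neuron genes 4 and 3 of 10. All tested markers of skeletal muscle (8), erythroid cells (6), myeloid cells (5), epidermis (6), yolk and liver (6), heart and vessel (6) and notochord (5) fell, and 1 of 2 germ cell genes did. Of these, 6 muscle genes (among them myod1 and myog), 5 erythroid (gata1a and alas2 among them), 3 epidermal and 5 yolk and liver records were listed at 0 in every chimera, and the muscle sum went from 3375 to 5108 in the embryos to 0.00799 to 0.628. Markers of those tissues were thus low or at 0 in the donor cells, while cell cycle and retina transcripts were higher there. The part of these differences in the values of the chromatin regulator genes was not tested.

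**Figure D4:**
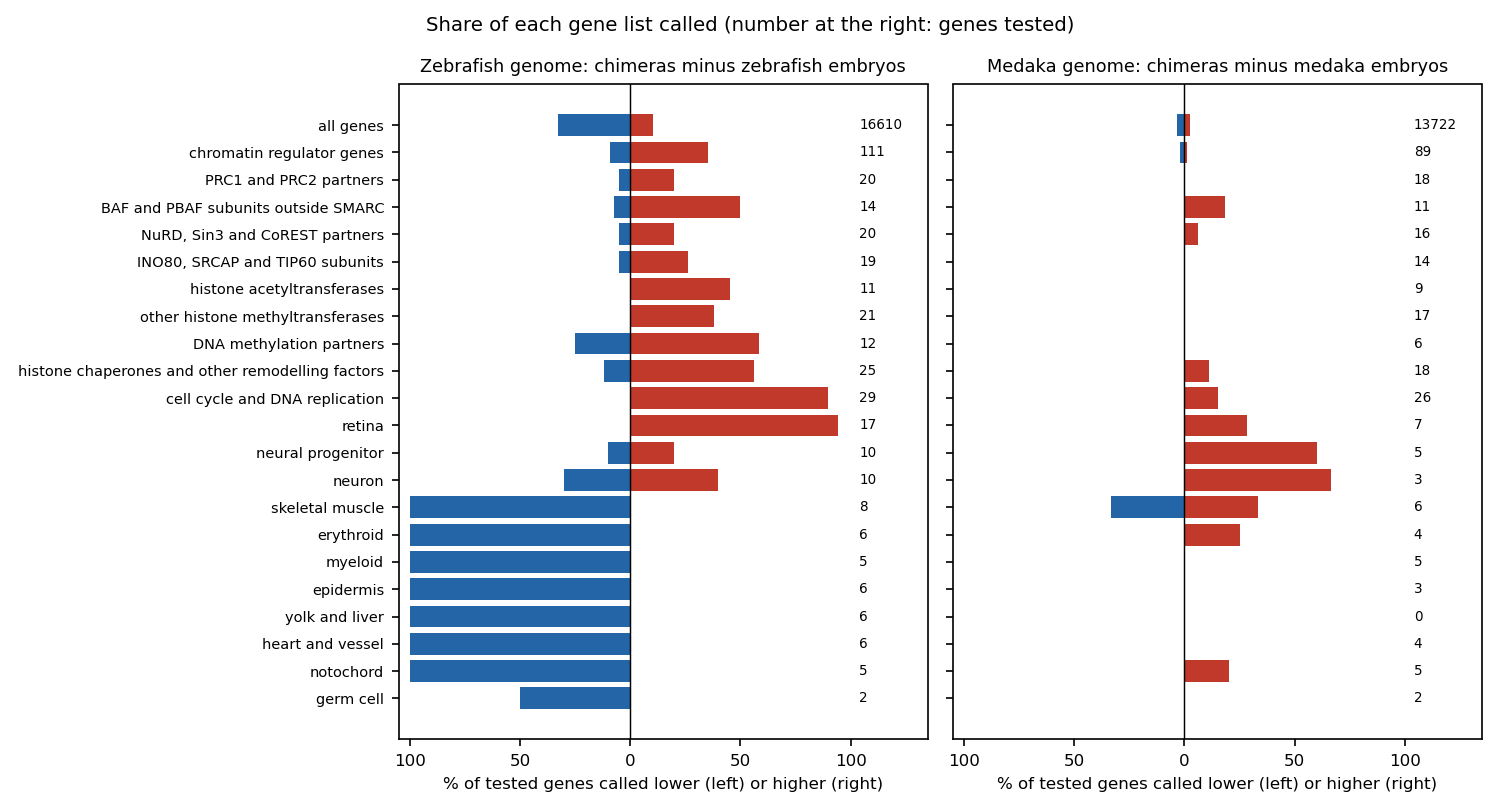
Share of the tested genes of each list called lower (left of 0) and higher (right of 0), in %, for chimeras minus zebrafish embryos on the zebrafish genome and chimeras minus medaka embryos on the medaka genome, with the number tested beside each bar. On the zebrafish genome cell cycle (26 of 29) and retina genes (16 of 17) were mostly higher and the lists from skeletal muscle to notochord wholly lower; on the medaka genome most bars are short or rest on few genes.

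In the host, chromatin regulator genes changed little between chimeras and medaka embryos. Of 89 tested members 1 rose and 2 fell by limma's test, against a background of 2.7% higher and 3.18% lower of 13722 tested genes. Before adjustment 15 members had p under 0.05, and the share of all genes at that threshold was not counted. The median difference was 0.03, with 58 members within 0.1 and 84 within 0.2 of 0 on the log2(FPKM + 1) scale. The median standard error was 0.055, against 0.159 in the donor comparison, so smaller differences could be seen here. With a minimum mean of 5 FPKM 0 of 76 members rose and 2 fell, against 2.64% and 3.29% of all genes. The chimeras lay above both medaka embryos for 23 members and below both for 14, where 21.9% and 22.7% of all tested genes did so.

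The host members called lower were CBX7 and chd4b. CBX7, a Polycomb CBX gene, had 15.6 and 18.3 FPKM in the medaka embryos and 10.1, 11.1 and 10.5 in the chimeras. All chimeras were lower, with a difference of -0.63 ± 0.08 (adjusted p = 0.0120), which was past the threshold neither without medaka library 2 (0.0655) nor without chimera 3 (0.0508). chd4b, of NuRD, had 51.6 and 53.2 FPKM in the embryos and 45.1, 45.0 and 45.4 in the chimeras, all below (difference -0.21 ± 0.04, adjusted p = 0.0419). Without medaka library 1 or 2, chimera 1 or chimera 3 the call of chd4b did not hold, with adjusted p of 0.115 to 0.182. CBX7 held 33.7 and 36.2% of the Polycomb CBX FPKM in the medaka embryos and 23.4, 23.0 and 22.8% in the chimeras, and cbx2 33.2 and 33.2% against 37.3, 39.9 and 38.2%.

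No tested PRC2, DNMT, TET or class I HDAC gene was called in the host. ezh2 had 47.5 and 46.9 FPKM in the medaka embryos and 45.7, 49.3 and 46.5 in the chimeras, suz12a 29.6 and 28.7 against 26.9, 29.7 and 28.0, suz12b 32.5 and 31.2 against 31.7, 32.3 and 32.0, and ezh1 2.16 and 2.09 against 1.93, 1.96 and 2.11. For each of these PRC2 genes the chimeras overlapped the embryos. dnmt1 had 57.6 and 58.1 FPKM against 63.6, 61.5 and 64.4, all chimeras higher, with an adjusted p of 0.155. dnmt3aa had 16.8 and 17.2 FPKM against 17.4, 17.2 and 17.6, dnmt3ba 27.2 and 26.3 against 24.8, 23.4 and 25.0, and dnmt3bb.1 13.6 and 13.1 against 11.7, 12.3 and 11.4. The chimeras were below the embryos for dnmt3ba and dnmt3bb.1, without passing the test (adjusted p of 0.197 and 0.124). tet3, the only TET record found in medaka, had 19.2 and 19.5 FPKM against 18.9, 19.7 and 18.8, which overlapped. Of class I HDACs HDAC2 had 52.7 and 54.4 FPKM against 52.1, 52.1 and 52.3, and the tested hdac1 record (chromosome 22 of the medaka files) 68.0 and 68.8 against 73.4, 73.6 and 75.5. hdac3 and the other hdac1 record were not tested, with means of 46.6 ± 0.563 and 52.3 ± 0.415 and of 68.9 ± 1.04 and 71.8 ± 1.46 FPKM. The neighbouring hdac8 records had 16.5 and 15.4 against 16.3, 17.3 and 16.0, and 12.3 and 11.4 against 11.1, 11.5 and 11.1. HDAC2 was lower and the tested hdac1 record higher in all chimeras by small amounts, the hdac8 records overlapped, and none of the 4 was called. setd7, a SETD gene, had the largest standard error of the host members, with 50.1 and 56.0 FPKM in the embryos and 59.8, 84.4 and 55.7 in the chimeras, with chimera 2 highest.

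Other chromatin genes in the host gave 5 higher and 0 lower of 109, with a median of 0.05, where 2.7% of all tested genes rose and 3.18% fell. The named ones were bcl7bb of BAF, from 12.3 ± 0.865 to 16.1 ± 1.19 FPKM (adjusted p = 0.0496), rcor2 of CoREST, from 20.02 ± 0.331 to 24.8 ± 0.856, and the histone chaperone gene asf1bb, from 54.9 ± 0.867 to 67.6 ± 2.62. Beside these, 4 of 26 host cell cycle records rose and 0 fell, with a sum of 1646 to 1683 FPKM in the medaka embryos and 1779 to 1841 in the chimeras. Genes of other marker lists rose too: 3 of 5 neural progenitor, 2 of 7 retina, 2 of 3 neuron, 1 of 4 erythroid and 1 of 5 notochord genes. Of 6 skeletal muscle genes 2 rose and 2 fell. No tested myeloid, epidermis, heart and vessel or germ cell gene was called. Their part in the host values was not tested.

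The difference of the donor and the host change was itself tested over genes with the same symbol in 1 record per genome. Of 70 members, 40 changed more in the positive direction in the donor than in the host and 5 in the negative direction, against 19.8% and 27.3% of 7982 genes. Each genome's changes were centred on their median over these genes, which was -0.14 in the donor and 0.01 in the host, and both changes share the chimera libraries. The donor change sets donor cells against whole embryos, so it also takes in the differences in cell type markers given above. The part of cell types in the difference of changes was not tested. Of the 40, 30 were also called higher in the donor comparison and 10 were not called there. The test of the difference is relative to these centres. It also took a common residual variance for donor and host, although the median standard error of members was 0.159 in the donor comparison and 0.055 in the host. Its p-values can thus be too small for genes that vary more in the donor libraries. cbx2 led with 1.27 ± 0.14 (adjusted p = 6.06e-05), from a host with 15.4 and 16.7 FPKM in the medaka embryos and 16.1, 19.2 and 17.5 in the chimeras, which overlapped. kmt2a followed with 1.11 ± 0.21 (adjusted p = 0.00196), its host values being 3.93 and 4.09 against 3.97, 3.74 and 3.91 FPKM. For kdm4ab the difference was 1.1 ± 0.19, with host values of 4.99 and 5.51 against 5.25, 5.14 and 5.19 FPKM. The host changes of these 3 genes were 0.12 ± 0.08, -0.04 ± 0.06 and -0.01 ± 0.06, while the donor was higher in all chimeras.

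hdac4, kdm2ab and chd1 completed the largest positive differences, at 1.00 ± 0.25, 0.91 ± 0.12 and 0.88 ± 0.12 (adjusted p of 0.00930, 0.000205 and 0.000373). The host had 1.94 and 1.47 FPKM of hdac4 in the medaka embryos and 1.68, 1.80 and 1.67 in the chimeras, 11 and 10.5 against 12, 11.8 and 11.5 of kdm2ab, and 20.8 and 20.9 against 20.4, 22.0 and 20.9 of chd1. Host kdm2ab was slightly higher in all chimeras, and the other two overlapped. The 5 negative differences were those of smarcd2 (-1.21 ± 0.19, adjusted p = 0.000662), cbx8b (-1.09 ± 0.30, 0.0157), ezh1 (-0.90 ± 0.28, 0.0265), hdac9b (-0.90 ± 0.29, 0.0282) and hdac11 (-0.71 ± 0.18, 0.00951). Host smarcd2 had 4.60 and 4.66 FPKM in the embryos and 5.48, 4.68 and 5.26 in the chimeras, and host cbx8b 2.66 and 2.48 against 2.21, 2.62 and 2.68. Host hdac9b had 5.51 and 5.26 against 5.72, 5.32 and 5.22, and host hdac11 1.43 and 1.09 against 1.02, 0.912 and 1.15. In the host none of the 5 was called, and the depth limit given for the donor values of hdac9b and hdac11 applies here too. Under quantile normalization the differences were -0.15 for ezh1 (adjusted p = 0.643), -0.28 for hdac9b (0.373), -0.68 for cbx8b (0.0814) and -0.10 for hdac11 (0.589), and with a pseudocount of 5 that of hdac11 was -0.13 (0.118). With a pseudocount of 0.1 cbx8b, ezh1 and hdac9b had adjusted p of 0.0537, 0.0552 and 0.0513. The difference of smarcd2 kept its call under every alternative run for the difference, which were the pseudocount, the scaling, the block and left-out libraries. Thinned libraries were not among these. Its donor call was lost under quantile normalization, with thinned libraries and without either zebrafish library. With a library left out, adjusted p of the difference reached 0.06 for cbx8b without zebrafish library 1. It reached 0.0938 for ezh1 and 0.114 for hdac9b without zebrafish library 2. cbx8b was also not called without medaka library 2 (0.0576). ezh1 was not called without any 1 library but chimera 3, nor hdac9b without either medaka library, chimera 2 or chimera 3, at adjusted p of 0.0535 or more. Without either medaka library the negative calls numbered 3 (without library 1) and 2 (without library 2), without zebrafish library 2 they numbered 2, and without chimera 2 they numbered 3.

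**Figure D5:**
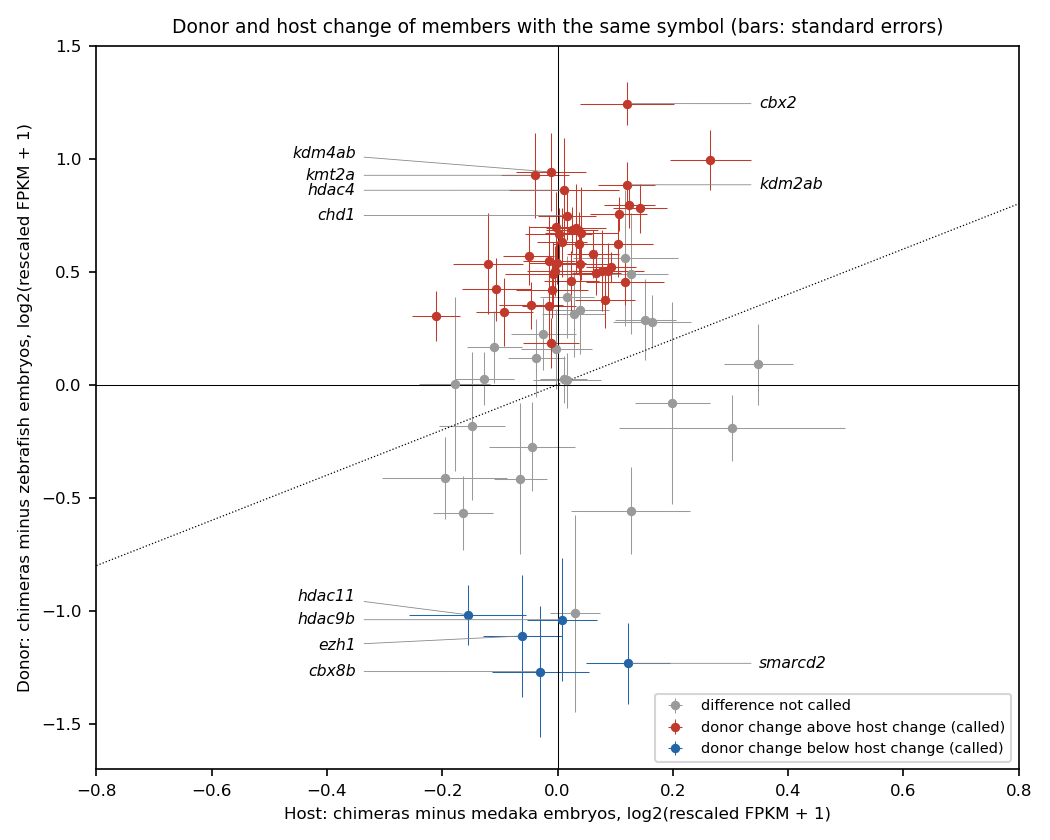
Donor change (y axis, chimeras minus zebrafish embryos) against host change (x axis, chimeras minus medaka embryos) of the 70 chromatin regulator genes with the same symbol in both genomes, in log2(rescaled FPKM + 1) with standard errors; the dotted line marks equal changes and the axes have different scales. Host values stay near 0 while donor values spread from -1.27 (cbx8b) to 1.24 (cbx2); the named genes have the largest called differences.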

How the data were processed

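The authors aligned reads with HISAT2 (version not given in the sources used here) and made FPKM per gene with Cufflinks 2.2.1, per the submitters' processing notes, which name danRer10; the medaka build is not given there. The deposited FPKM tables, 1 per library and genome (14), were used, with positions as in the files. Values of gene IDs at several loci (119 zebrafish, 2 medaka) were summed. Per the labels' protocols, RNA was extracted with Trizol and poly(A)-selected.

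Libraries were put on a common scale by the median of gene-wise FPKM ratios, and log2(FPKM + 1) was used, so folds of low genes are understated on that scale. limma 3.58.1 (R 4.3.3; trend and robust options) tested all genes that passed the filters, with Benjamini-Hochberg adjustment and a threshold of 0.05. With 2 against 3 libraries an exact permutation test could not go below 0.1. The fragments behind a value were worked out from the width of its Cufflinks confidence interval, which undercounts genes with several isoforms; floors of 3 fragments cover counting error only. The tests were tried on simulated data. Tables and figures used Python 3.11.15, numpy 2.4.6, pandas 2.3.3 and matplotlib 3.10.9.

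The members, the 20 other gene lists (314 entries, of which 294 matched zebrafish and 219 medaka records) and the tests were chosen with earlier results of these data known. Named members are the 12 most increased and 12 most decreased called donor genes whose groups do not overlap (10 decreased were called), up to 8 and 8 in the host, up to 6 and 6 for the difference, and all PRC2, DNMT, TET and class I HDAC genes; per other list, the called gene with the largest increase and decrease. Any other gene was named after its values were seen. A withheld item is not reported here, but it stays in the counts. Alternatives covered the pseudocount (0.1 and 5), both filters, scaling, voom weights, thinning, all 3 groups in a fit, the chimera library as a block and each library left out. For the difference of changes only the pseudocount, scaling, the block and each library left out were varied. Promoter sequences were not used here, so no motif was searched.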

Additional observations from a re-analysis of the deposited data

Results flagged for a closer look

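The change of 45 of the 70 chromatin regulator genes with the same symbol in both genomes differed between donor and host by limma's interaction test, 40 with the donor above the host and 5 below. The largest positive differences, in log2(FPKM + 1) relative to each genome's median, were those of cbx2 (1.27), kmt2a (1.11), kdm4ab (1.1), hdac4 (1.00), kdm2ab (0.91) and chd1 (0.88). The negative ones were those of smarcd2 (-1.21), cbx8b (-1.09), ezh1 (-0.90), hdac9b (-0.90) and hdac11 (-0.71). For hdac9b and hdac11 the estimate at the embryos' level was under 3 fragments per chimera. By this estimate, which can run low, their differences cannot be told from missing coverage. The donor values of cbx8b and ezh1 rested on 7.00 and 2.11 implied fragments in all, and those of smarcd2 were also on few. Of the 5 differences, only that of smarcd2 kept its call under every alternative run for the difference, which did not include thinned libraries. Its donor call, however, was lost in 4 settings, thinned libraries among them. The test took a common residual variance for donor and host, so its p-values can be too small where the donor libraries vary more. The groups hold 2 or 3 libraries, too few to test single libraries as far from the others of their group.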

How the results depend on the processing

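Of the donor changes of named members, 551 values under the alternatives kept their side of the threshold, 77 lost the call and 4 gained one. A further 4 turned sign and were called in the main fit, the alternative or both. Values called in neither fit count as kept even where their sign turned. For the host the numbers were 288, 13, 1 and 0, and for the difference of changes 110, 21, 0 and 0. In the donor, 12 of the 39 higher calls held under every alternative run (brd1b, brd3a, brd7, cbx2, cbx5, chd1, dnmt1, kdm1a, kdm2ab, setd8b, smarca5 and smarcc1a), and 0 of the 10 lower ones did. The 4 that turned sign did so under quantile normalization: ezh1 (0.0985), hdac9b (0.0361), hdac11 (0.0629) and smarca1 (0.581, adjusted p = 0.0331); this setting gives libraries of unlike depth 1 distribution, and the cause was not tested.

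The count of donor members called lower was 5 with a pseudocount of 0.1, 2 with a minimum mean of 5 FPKM and 0 under quantile normalization. The count called higher was 66 under quantile normalization and 24 with libraries thinned to the lowest total. With 1 zebrafish or chimera library left out, donor members called higher numbered 18 to 34 and lower 1 to 8. Medaka libraries serve only the cross-mapping filter here, and without 1 of them 38 or 40 were higher and 10 lower. In the host, members called lower numbered 1 with no expression filter, with FPKM not rescaled or with thinned libraries; with a minimum of 5 FPKM 0 were called higher, and with all 3 groups in the fit 2 were higher and 4 lower. With 1 library left out, 0 to 2 host members were higher and 0 to 2 lower. For the difference of changes, members called lower numbered 2 with a pseudocount of 0.1 and 1 under quantile normalization, and 2 to 5 with 1 library left out, when 31 to 40 were higher. The cause of these changes was not tested, apart from the genes removed by a filter and the libraries removed.

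No paired analysis was possible because the labels carry no replicate number that links libraries of different groups. With the chimera library as a block (correlation 0.019) the difference of changes also gave 40 higher and 5 lower calls. Depth limits the donor side: 27 of the 111 tested members rested on fewer than 30 fragments summed over the chimeras and 12 on fewer than 10, against 0 of 89 in the host, so that decreases of low genes in the donor are weakly supported by coverage.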
